A study of Rattus norvegicus with 18 samples.

Results

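The 8 genes followed here encode proteins that carry out transport and coupling in astrocytes, and they were read in primary rat cortical neurons given an shRNA against CHD5, a chromatin remodeling ATPase of neurons. They were Slc1a2, Slc1a3, Glul, Gja1, Aqp4, Mlc1_predicted (the name of Mlc1 on the array), Atp1b2 and Kcnj10. The genes were chosen by name and found through the gene symbols of the array, which held 22523 probes for 21563 symbols. Of the 8 genes, 7 had a probe, each a single one, and 6 were tested. Glul was not analysed here because no row of the table used here carries its symbol, and the Kcnj10 probe was detected on 0 of 18 arrays. The cells were cultured from cortex, and on day 1 they received for 6 hours a lentivirus with the pLKO.1 vector carrying either CHD5 shRNA or a scrambled control shRNA, so the control cultures were infected as well. RNA was harvested on day 5, 9 or 12 from 3 replicates (a, b and c) per lentivirus, which gave the 6 groups day 5 control, day 5 CHD5 shRNA, day 9 control, day 9 CHD5 shRNA, day 12 control and day 12 CHD5 shRNA. A single CHD5 shRNA was used on these arrays. The labels do not say whether the replicates are separate cultures, so p-values measure the spread between these arrays, which may be technical.

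Astrocytes take up the glutamate that neurons release. Slc1a2 (GLT-1) and Slc1a3 (GLAST) are the sodium-dependent transporters that do so, and glutamine synthetase, the product of Glul, turns the glutamate into glutamine, which is handed back to neurons. Astrocytes are joined to each other by gap junctions made largely of connexin 43, the product of Gja1. Aqp4 is the water channel of astrocyte endfeet, Mlc1 is a membrane protein of the endfeet that is mutated in a leukodystrophy with cysts, Atp1b2 is a beta subunit of the sodium and potassium pump, and Kcnj10 (Kir4.1) is the potassium channel through which astrocytes buffer extracellular potassium. Cultures of cortical neurons hold some astrocytes, and RNA was taken from whole cultures, so fewer astrocytes and less RNA per astrocyte cannot be told apart in any value below.

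Each gene was read by a probe of 50 bases. In the RefSeq annotation of the rat genome (GRCr8), Slc1a2 lies on chromosome 3 from 109460109 to 109590445, Slc1a3 on chromosome 2 from 59482707 to 59557808, and Gja1 on chromosome 20 from 36302490 to 36315010. Aqp4 lies on chromosome 18 from 6782389 to 6799034, Mlc1 on chromosome 7 from 121926356 to 121949484, Atp1b2 on chromosome 10 from 54817473 to 54823708 and Kcnj10 on chromosome 13 from 87334510 to 87367747. The probes of Slc1a2 and Kcnj10 are shown, since both genes were read close to or below the detection limit and all their values rest on these bases. The Slc1a2 probe starts at base 1604 of the transcript named in the table and the Kcnj10 probe at base 1033. Their G and C contents are 54.0% and 56.0%, within the range of 48.0% to 58.0% over the 7 probes.
Slc1a2: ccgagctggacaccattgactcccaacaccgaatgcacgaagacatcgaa
Kcnj10: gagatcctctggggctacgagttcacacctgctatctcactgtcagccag

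Promoters are shown for Gja1 and Mlc1, the pair of members whose values were most alike across the arrays. Each is the 250 bases before an annotated transcript start, from RefSeq (GRCr8), read 5′ to 3′ on the gene's strand, with matches to the half-site of nuclear factor I, a factor family of astrocyte development, in capitals. The half-site was searched as TTGGC on both strands. The Gja1 window lies at chr20:36302314-36302563 (plus strand) and the Mlc1 window at chr7:121946699-121946948 (minus strand). By the gene spans given above, the Mlc1 window lies inside its gene and the Gja1 window overlaps the start of its gene.
Gja1: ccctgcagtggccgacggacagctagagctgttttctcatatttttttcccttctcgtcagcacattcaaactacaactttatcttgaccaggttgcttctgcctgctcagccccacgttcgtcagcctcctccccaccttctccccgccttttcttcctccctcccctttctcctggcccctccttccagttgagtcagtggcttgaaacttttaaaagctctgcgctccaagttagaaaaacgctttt
Mlc1: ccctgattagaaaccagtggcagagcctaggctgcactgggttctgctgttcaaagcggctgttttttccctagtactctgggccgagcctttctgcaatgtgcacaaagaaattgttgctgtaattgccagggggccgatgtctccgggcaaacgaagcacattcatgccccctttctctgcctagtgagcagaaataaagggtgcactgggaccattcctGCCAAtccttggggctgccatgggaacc

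The Mlc1 window holds 1 match and the Gja1 window 0. Of all 33469 promoter windows of this length, 40.3% hold at least 1 match. RefSeq lists 13 windows for the 8 genes, some of them overlapping, and 7 of these hold a match. A match describes the letters and does not show that the factor binds.

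The arrays report the mean signal intensity of the beads of each probe, with neither normalization nor background subtraction, and a detection p-value against negative control beads. A probe was called detected on an array at a detection p-value of at most 0.02. For tests, the log2 signals of the 11079 probes detected on at least 1 array were brought to the same mean and SD on every array (scaled log2 signal), limma was fitted to all 6 groups, and a probe was called when its Benjamini-Hochberg adjusted p over these 11079 probes was under 0.05. The mean signal was 400.2 to 789 on 17 arrays, with 8360 to 9931 probes detected. The day 9 control array of replicate b stood apart, with a mean signal of 135, 7047 detected probes and an SD of log2 signals of 1.11 against 1.72 to 2.02 on the others. Results of the members that changed without it are given both ways. Scaling raises bright probes on that array, since its narrow spread is stretched to that of the others. No probe carries the name Chd5, so depletion of the targeted mRNA was not checked here. Of the neuron markers listed, 11 of 11 with a probe were detected on every array and 13 to 16 of 16 astrocyte markers were detected too. Of 9 microglia markers 0 to 1 were detected per array, and of 5 endothelial and pericyte markers 0 to 1.

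All 6 members tested rose in control cultures between day 5 and day 12, and 5 of the 6 were lower in CHD5 shRNA cultures on day 12, by 1.45- to 1.81-fold. On day 9, 3 were lower (Gja1, Aqp4 and Mlc1). On day 5 limma called 0 of 6 at a background of 0.126% of probes called lower (14 of 11079), with 627 of all probes at an unadjusted p under 0.05 in either direction. On day 9 the background was 2.25% and on day 12 3.24%. The median difference between CHD5 shRNA and control over the 6 members was -0.22 on day 5, -0.93 on day 9 and -0.74 on day 12 on the log2 scale, and the median over all probes was between -0.02 and 0.01 on each day. The day 9 median of the members without day 9 control replicate b was -0.66, and those of days 5 and 12 were as before. Because the members were chosen with earlier results of these data known, these counts describe the members and are not an independent test of them.

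**Figure D1:**
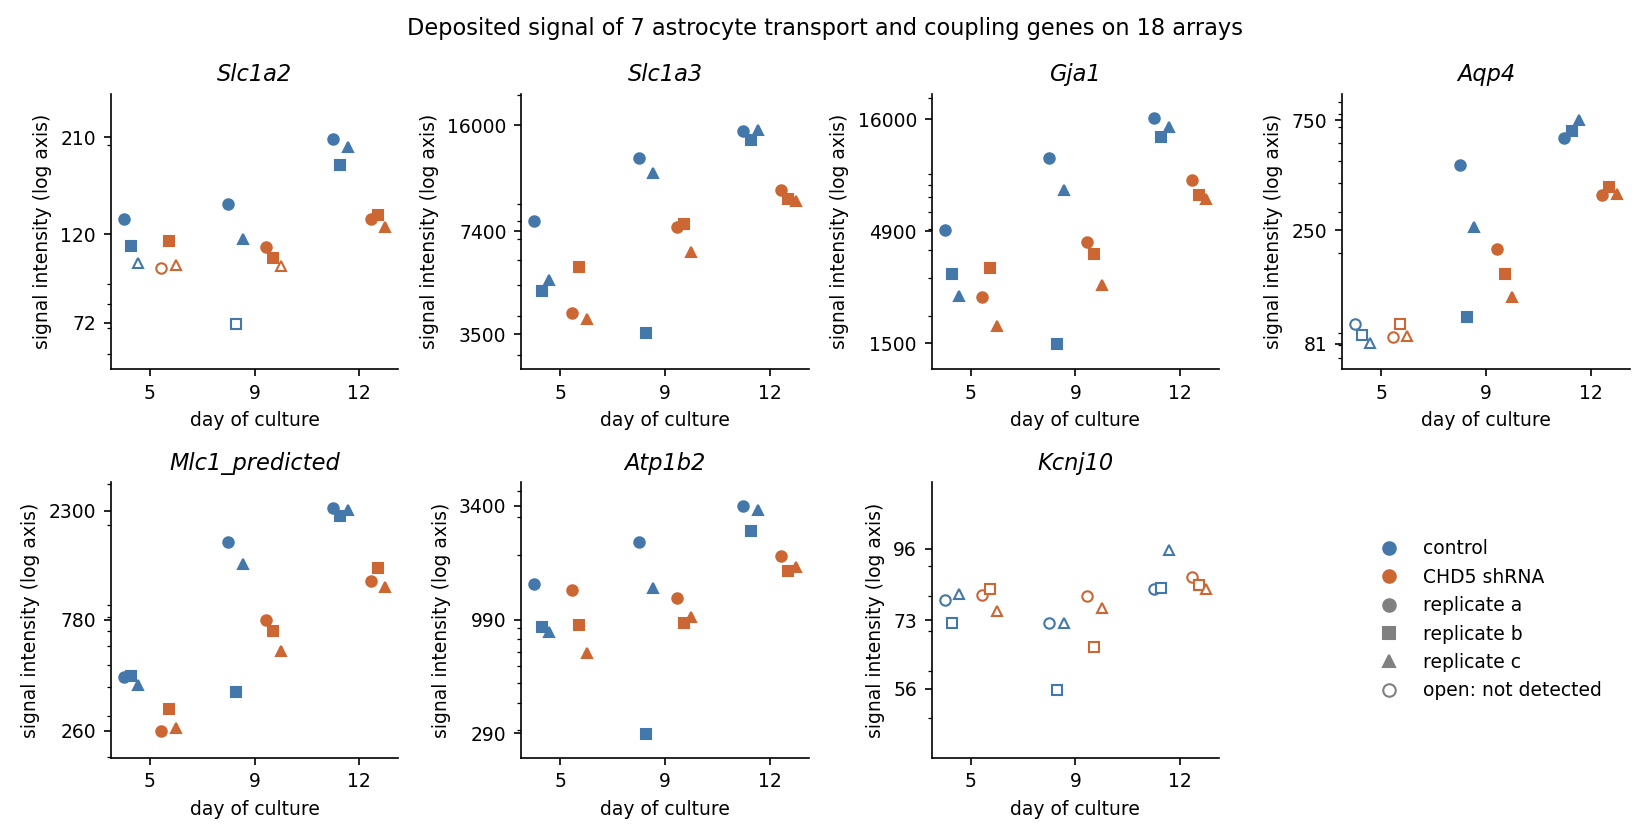
Deposited signal intensity (log axis) of the 7 genes with a probe, by day of culture, for control (blue) and CHD5 shRNA (orange). Each point is 1 array, shapes mark replicates, and open points were not detected. On day 12 the 3 CHD5 shRNA arrays lie below the 3 control arrays for each gene except Kcnj10, and the low blue squares on day 9 are the control array of replicate b.

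Slc1a2, the glutamate transporter that dominates uptake in the mature forebrain, was read close to background. Its signals were 131, 112 and 102 in day 5 control (replicates a, b and c) and 98.9, 115 and 100.2 in day 5 CHD5 shRNA. On day 9 they were 143, 71.5 and 117 in control and 112, 105 and 99.8 in CHD5 shRNA. On day 12 they were 208, 178 and 199 in control and 131, 134 and 125 in CHD5 shRNA. The day 12 control arrays were the highest of all 18, and both day 12 groups were detected on 3 of 3 arrays, against 2 of 3 in day 5 control and 1 of 3 in day 5 CHD5 shRNA. On the scaled log2 scale, Slc1a2 was lower in CHD5 shRNA on day 12 (difference -0.54, SE 0.09, limma adjusted p = 0.00112), a 1.45-fold difference. Its size depended on the processing, from -0.91 to -0.49 over 28 alternatives, 27 of which called it. The differences were -0.09 on day 5 and -0.22 on day 9, and neither was called (limma adjusted p 0.999 and 0.152). In control cultures Slc1a2 rose by 0.84 from day 5 to day 12 (SE 0.09, limma adjusted p = 7.76e-07), and in CHD5 shRNA cultures by 0.40 (SE 0.09, limma adjusted p = 0.00314). In order of its scaled means the groups ran day 5 CHD5 shRNA, day 5 control, day 9 CHD5 shRNA, day 12 CHD5 shRNA, day 9 control and day 12 control. The arrays of both day 5 groups overlapped, and so did those of day 12 CHD5 shRNA and day 9 control.

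Slc1a3, the glutamate transporter that is prominent in immature astrocytes and radial glia, gave signals of 7995, 4777 and 5179 in day 5 control and 4075, 5696 and 3898 in day 5 CHD5 shRNA. On day 9 they were 12599, 3526 and 11333 in control and 7643, 7819 and 6372 in CHD5 shRNA. On day 12 they were 15319, 14347 and 15505 in control and 9979, 9387 and 9202 in CHD5 shRNA. The groups of day 12 were separate, those of day 5 overlapped as deposited and were separate after scaling, and the low value of day 9 control is replicate b. After scaling, that array gave 16.17 for Slc1a3 against 13.11 and 13.63 on the other day 9 control arrays, and the residual spread of this gene became the widest of the members. With all arrays, Slc1a3 differed between CHD5 shRNA and control by -0.34, -1.19 and -0.53 on days 5, 9 and 12 (SE 0.46 each), and none of these was called (limma adjusted p 0.999, 0.143 and 0.716). Without day 9 control replicate b, the day 12 difference of -0.53 had an SE of 0.12 and was called (limma adjusted p = 0.00452), while the day 9 difference was -0.25 (SE 0.13, limma adjusted p = 0.225). In control cultures Slc1a3 rose by 1.67 from day 5 to day 12 (SE 0.46, limma adjusted p = 0.0129), and in CHD5 shRNA cultures by 1.49 (SE 0.46, limma adjusted p = 0.0328). The latter call was lost on leaving out any 1 of the 6 arrays compared, with limma adjusted p of 0.0690 to 0.0947, and without a detection filter (limma adjusted p = 0.233). It stayed under 21 of 28 alternatives, the fit without day 9 control replicate b among them. The call in control was also lost without a detection filter (limma adjusted p = 0.113) and stayed under 27 of 28 alternatives.
Without replicate b of day 9 control, the groups ran in order of scaled means day 5 CHD5 shRNA, day 5 control, day 9 CHD5 shRNA, day 12 CHD5 shRNA, day 9 control and day 12 control. Day 9 CHD5 shRNA overlapped with day 12 CHD5 shRNA, and that group with day 9 control. With all arrays, day 9 control moved to the top of the order and overlapped with day 12 control.

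Gja1, which encodes the main connexin of astrocytes, gave signals of 4940.4, 3107 and 2475 in day 5 control and 2432, 3329 and 1791 in day 5 CHD5 shRNA. On day 9 they were 10656, 1481 and 7555 in control and 4353, 3848 and 2764 in CHD5 shRNA. On day 12 they were 16134, 13267 and 14757 in control and 8398, 7156 and 6914 in CHD5 shRNA. After scaling, each CHD5 shRNA group lay below the control group of its day without overlap. Gja1 was 2.44-fold lower in CHD5 shRNA on day 9 (log2 difference -1.29, SE 0.22, limma adjusted p = 0.00337) and 1.79-fold lower on day 12 (-0.84, SE 0.22, limma adjusted p = 0.0316). The day 12 call was lost on leaving out any 1 of the 6 day 12 arrays, with limma adjusted p of 0.0764 to 0.125. The day 5 difference was -0.42 and was not called (limma adjusted p = 0.954). Without day 9 control replicate b, the day 9 difference of Gja1 was -0.89 and stayed called (limma adjusted p = 0.000147). Gja1 rose from day 5 to day 12 by 2.39 in control (SE 0.22, limma adjusted p = 2.34e-07) and by 1.97 in CHD5 shRNA cultures (SE 0.22, limma adjusted p = 5.20e-06). The groups ran in the order day 5 CHD5 shRNA, day 5 control, day 9 CHD5 shRNA, day 12 CHD5 shRNA, day 9 control and day 12 control, and the arrays of day 9 control overlapped with those of day 12 control alone. Without replicate b these groups were separate.

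Aqp4, the endfoot water channel, was not well above background on any day 5 array, with signals of 98.9, 88.6 and 81.5 in control and 86.8, 98.4 and 87.3 in CHD5 shRNA. On day 9 its signals were 479, 106 and 258 in control and 207, 162 and 128 in CHD5 shRNA. On day 12 they were 629, 673 and 753 in control and 355, 385 and 359 in CHD5 shRNA. The signal was thus detected on all 12 arrays of days 9 and 12 and on 0 of 6 arrays of day 5. From day 5 to day 12 Aqp4 rose at least 6.62-fold in control and at least 3.59-fold in CHD5 shRNA cultures. Both rises were called from the measured signals (limma adjusted p = 2.38e-10 and 4.21e-08), and the bounds themselves were not tested. These bounds set the day 5 arrays to the lowest signal of any probe detected on them, wherever that exceeded the signal of Aqp4 itself. From day 5 to day 9 the bounds were 3.27-fold in control and 1.80-fold in CHD5 shRNA cultures. Between CHD5 shRNA and control Aqp4 differed by -0.81 on day 9 (SE 0.16, limma adjusted p = 0.00763) and by -0.83 on day 12 (SE 0.16, limma adjusted p = 0.00453), which is 1.75-fold and 1.77-fold lower. Without day 9 control replicate b, its scaled mean in day 9 control rose from 8.29 to 8.44, against 7.485 in CHD5 shRNA. As deposited, the day 9 control array of replicate b (106) lay below all 3 day 9 CHD5 shRNA arrays. After scaling, the groups of days 9 and 12 did not overlap between lentiviruses. In order of scaled means they ran day 9 CHD5 shRNA, day 9 control, day 12 CHD5 shRNA and day 12 control, and day 9 control overlapped with day 12 CHD5 shRNA.

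Mlc1_predicted, the endfoot membrane protein, gave signals of 443, 445 and 408 in day 5 control and 258, 323 and 268 in day 5 CHD5 shRNA. On day 9 they were 1689.6, 381 and 1352 in control and 775, 695 and 573 in CHD5 shRNA. On day 12 they were 2347, 2171 and 2314 in control and 1146, 1309 and 1078 in CHD5 shRNA. The lentiviruses did not overlap on any day after scaling. On day 5 the difference was -0.56 (SE 0.15) and was not called (limma adjusted p = 0.192), although it was called without day 9 control replicate b (limma adjusted p = 0.0157), since that array enters the shared estimate of the spread. Mlc1_predicted was 2.07-fold lower in CHD5 shRNA on day 9 (log2 difference -1.05, SE 0.15, limma adjusted p = 0.000768) and 1.81-fold lower on day 12 (-0.86, SE 0.15, limma adjusted p = 0.00179). Without day 9 control replicate b, its scaled mean in day 9 control fell from 10.65 to 10.48, against 9.60 in CHD5 shRNA. Mlc1_predicted rose from day 5 to day 12 by 2.52 in control (SE 0.15, limma adjusted p = 6.12e-10) and by 2.23 in CHD5 shRNA cultures (SE 0.15, limma adjusted p = 6.59e-09). Its groups ran in the same order as those of Gja1, and day 9 control overlapped with day 12 control. Without replicate b these groups were separate.

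Atp1b2, which encodes the beta subunit of the sodium and potassium pump also known as AMOG and found on astrocytes and on some neurons, gave signals of 1456, 918 and 869.6 in day 5 control and 1361, 939 and 688 in day 5 CHD5 shRNA. On day 9 they were 2291, 289 and 1396 in control and 1251, 954 and 1023 in CHD5 shRNA. On day 12 they were 3375, 2572 and 3241 in control and 1979, 1674 and 1748 in CHD5 shRNA. After scaling, the lentiviruses overlapped on days 5 and 9 and were separate on day 12. They were separate on day 9 too without day 9 control replicate b. With that array left out, the scaled mean of day 9 control was 10.71, against 10.58 with it and 10.28 in CHD5 shRNA. Atp1b2 was 1.58-fold lower in CHD5 shRNA on day 12 (log2 difference -0.66, SE 0.16, limma adjusted p = 0.0185). This call was lost on leaving out any 1 of the day 12 arrays except control replicate b, with limma adjusted p of 0.0567 to 0.0964. The differences were -0.10 on day 5 and -0.31 on day 9, neither called (limma adjusted p 0.999 and 0.284). It rose from day 5 to day 12 by 1.73 in control (SE 0.16, limma adjusted p = 1.72e-07) and by 1.18 in CHD5 shRNA cultures (SE 0.16, limma adjusted p = 3.59e-05). Neighbouring groups overlapped between the lentiviruses on day 5, between day 9 CHD5 shRNA and day 9 control, and between day 9 control and day 12 CHD5 shRNA, the first and the last of these also without day 9 control replicate b.

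Kcnj10, the potassium channel, gave signals of 55.8 to 95.5 over the 18 arrays and was detected on 0 of them. Its highest value was on day 12 control replicate c and its lowest on day 9 control replicate b. The probe was not tested, and no statement on its level can be made from it.

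**Figure D2:**
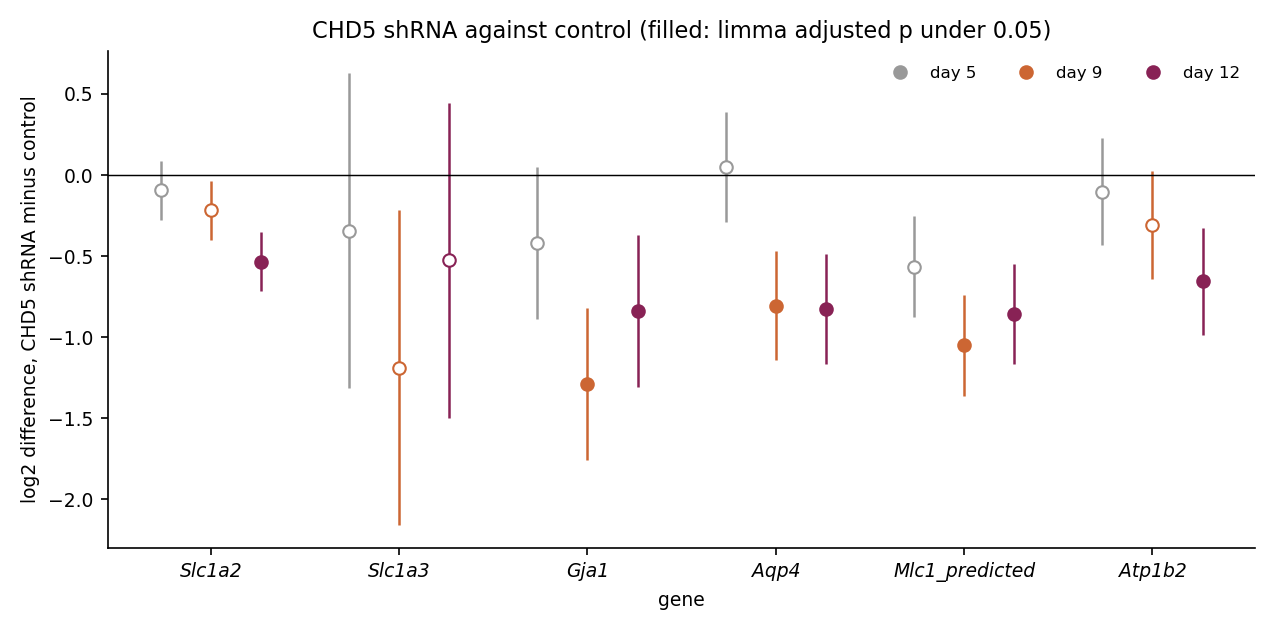
Log2 difference between CHD5 shRNA and control for the 6 members tested, on days 5 (grey), 9 (orange) and 12 (purple). Points are limma estimates, bars are 95% confidence intervals, and filled points had a limma adjusted p under 0.05. All 5 filled points of day 12 lie between -0.54 and -0.86, and Slc1a3 has the widest bars.

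In scaled log2 signal, the CHD5 shRNA arrays lay below all control arrays of the same day, without overlap, for 3 of the 6 members on day 5, 4 on day 9 and 6 on day 12. Over all probes tested, 5.8%, 8.16% and 18.3% behaved so on these days. The day 9 count without day 9 control replicate b was 5, with Atp1b2 added, at 22% of all probes, against a control group of 2 arrays. An exact permutation test of 3 against 3 arrays, two-sided, cannot give a p below 0.1, and it gave 0.1 for each of these members and days. Whether the difference between CHD5 shRNA and control itself changed between days was tested as an interaction. It changed for 0 of 6 members between days 5 and 9 (0% of all probes called, 809 at an unadjusted p under 0.05), for 0 between days 9 and 12 (0%, 262 unadjusted) and for 0 between days 5 and 12 (0.153%, 748 unadjusted) in limma. Between days 5 and 12 the estimates were negative for all 6, from -0.88 for Aqp4 (SE 0.23, limma adjusted p = 0.165) to -0.18 for Slc1a3 (SE 0.65). A call on day 12 and none on day 5 is therefore not a shown difference between the days. Without day 9 control replicate b, Aqp4 and Slc1a2 passed the limit between days 5 and 12 (limma adjusted p 0.0167 and 0.0371). In that fit 1.46% of all probes were called with a negative change and 0.894% with a positive one. Aqp4 was detected on 0 of 6 day 5 arrays and Slc1a2 on 3 of 6, so a day 5 difference could not be read for Aqp4 and only poorly for Slc1a2, and no change between the days is drawn from these values.

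In control cultures 6 of 6 members rose from day 5 to day 9, where 9.18% of all probes rose, and 3 rose from day 9 to day 12 (Slc1a2, Aqp4 and Atp1b2), where 2.95% rose. Over the whole interval 6 of 6 rose, against 11.1% of all probes. In CHD5 shRNA cultures 4 of 6 rose from day 5 to day 9 (Gja1, Aqp4, Mlc1_predicted and Atp1b2), where 4.61% rose. From day 9 to day 12 only Aqp4 was called, by 0.99 (SE 0.16, limma adjusted p = 0.00236), where 0.957% rose. From day 5 to day 12 6 of 6 rose there too, against 8.46%. The steps that meet at day 9 share the day 9 arrays. Without day 9 control replicate b, 5 members rose in control from day 9 to day 12 and 4 in CHD5 shRNA cultures, and 6 of 6 rose in CHD5 shRNA cultures from day 5 to day 9, where 3.15%, 2.96% and 11.4% of all probes rose in the same fit. The call of Slc1a2 from day 5 to day 9 in control was lost under 5 alternatives (limma adjusted p 0.0707 to 0.242). From day 9 to day 12 Slc1a3 differed by -0.60 in control with all arrays and by 0.34 without that array, neither called (limma adjusted p 0.469 and 0.157).

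**Figure D3:**
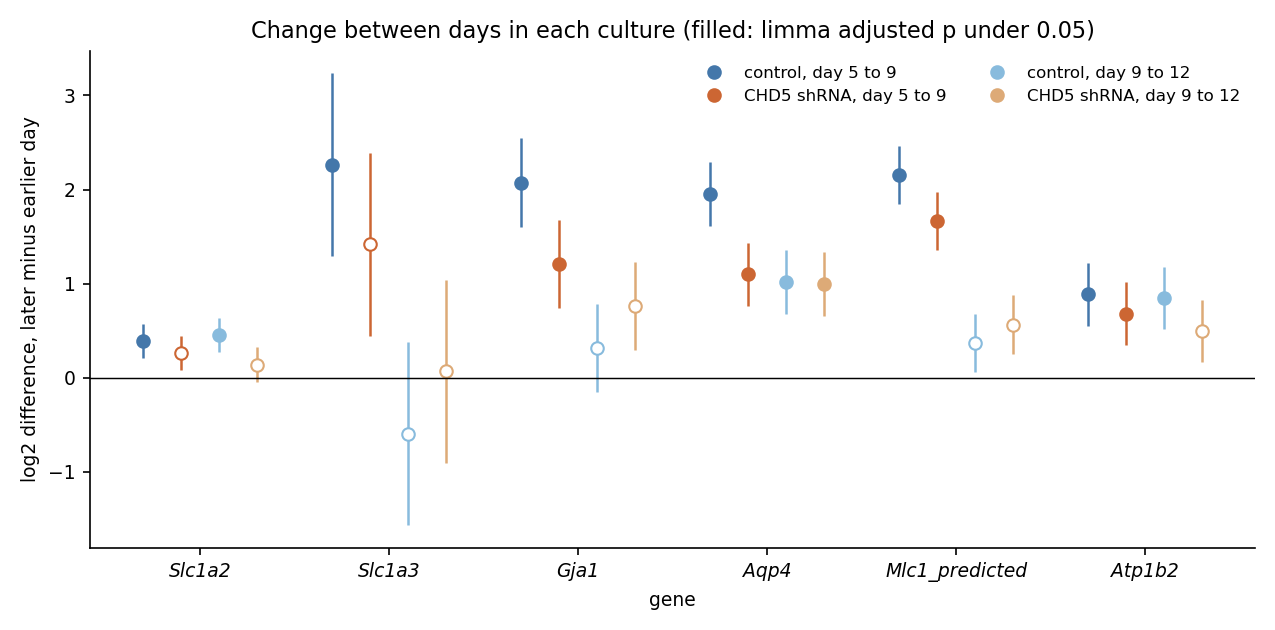
Log2 difference between successive days for the 6 members, in control (blue shades) and CHD5 shRNA cultures (orange shades), with 95% confidence intervals. Filled points had a limma adjusted p under 0.05. The day 5 to day 9 step was called in control for all 6, and Aqp4 is the only member called in every step of both cultures.

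**Figure D4:**
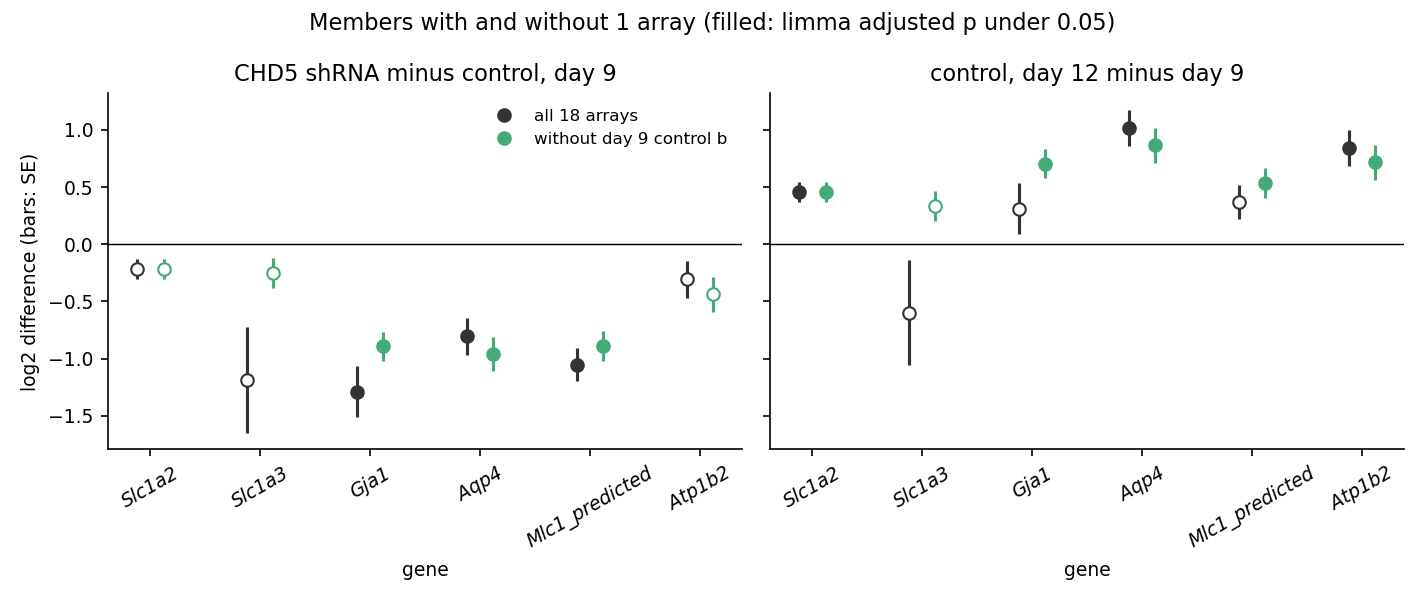
Log2 difference between CHD5 shRNA and control on day 9 (left) and between days 12 and 9 in control (right), with all 18 arrays (black) and without day 9 control replicate b (green). Bars are SE and filled points had a limma adjusted p under 0.05. On day 9 Slc1a3 moved from -1.19 to -0.25, while Gja1, Aqp4 and Mlc1_predicted were called either way.

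Across the 18 arrays, each member's scaled values were correlated with those of the others. Gja1 and Mlc1_predicted were most alike (r = 0.978), then Aqp4 and Atp1b2 (r = 0.952). Slc1a2 was most like Aqp4 (r = 0.924) and Slc1a3 most like Gja1 (r = 0.891). Slc1a3 and Atp1b2 were least alike (r = 0.588). Among the 5 other genes most like the mean of the members' standardized values were Ttyh1_predicted (r = 0.993), which encodes a membrane protein of the tweety family, Aldoc (0.989), the brain aldolase, Acsbg1 (0.987), an acyl-CoA synthetase, and Ndrg2 (0.986). Aldoc, Acsbg1 and Ndrg2 stood on the list of astrocyte markers. Without day 9 control replicate b, over 17 arrays, Gja1 and Mlc1_predicted were still the most alike pair (r = 0.984), but Slc1a3 was most like Mlc1_predicted (r = 0.975), Slc1a2 (r = 0.935) and Aqp4 (r = 0.977) most like Gja1, and the least alike pair was Slc1a2 and Slc1a3 (r = 0.856). Aldoc (0.990) and Ndrg2 (0.9897) then left the 5 genes most like the members, and Ttyh1_predicted (0.994) and Acsbg1 (0.994) stayed. These correlations follow the same 18 arrays, days and lentiviruses as the values above, so they are descriptions with no test.

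Among 28 other genes of glutamate, glutamine and GABA handling, 24 were tested. On day 5 none was called, on day 9 2 were lower and 1 higher in CHD5 shRNA, and on day 12 3 were lower. Of all 11079 probes, 249 were lower and 404 higher on day 9, and 359 lower and 247 higher on day 12. These counts are also the background for the gap junction and ion and water transport lists below. Slc38a3, the glutamine exporter of astrocytes (SNAT3), was lower on day 9 (-0.44, SE 0.09, limma adjusted p = 0.00932) and on day 12 (-0.66, SE 0.09, limma adjusted p = 0.000312). Abat, which breaks down GABA, was lower on both days (-0.46 and -0.49). Slc17a6, which loads glutamate into synaptic vesicles of neurons, was higher on day 9 (0.58, SE 0.16, limma adjusted p = 0.0354). The median over the 24 genes was -0.07 on day 12, close to that of all probes. Slc38a5, Slc25a22 and Slc6a13 were not detected on any array.

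Of 12 other gap junction genes, 7 were tested. On day 12 Gjb2, which encodes connexin 26, was lower (-0.41, SE 0.10, limma adjusted p = 0.0217), and Gja4 (connexin 37) and Panx2 (pannexin 2) were higher (0.37 and 0.39). Panx2 was the only one called on day 9 (0.39, SE 0.10, limma adjusted p = 0.0225), and none was called on day 5. Connexin 30, the partner connexin of mature astrocytes encoded by Gjb6, was not detected on any array.

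Of 26 other genes of ion and water transport and endfoot anchoring, 21 were tested, 3 of which were lower on day 9, and 4 were lower and 1 higher on day 12. Slc4a4, a sodium bicarbonate cotransporter, was lower on day 9 (-0.64, SE 0.15, limma adjusted p = 0.0175) and day 12 (-0.74, SE 0.15, limma adjusted p = 0.00596). Hepacam, the binding partner of Mlc1 (named RGD1306811_predicted on the array and matched by gene identifier), was lower on day 12 (-0.65, SE 0.15, limma adjusted p = 0.0157). Ca2 (carbonic anhydrase 2) was lower on day 12 (-0.51), and Fxyd6, a regulator of the pump, was higher (0.52). The median of the 21 genes on day 12 was -0.01. Kcnj16 and Kcnj2, other inward rectifier channels, and Aqp1 and Aqp5 were not detected on any array.

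**Figure D5:**
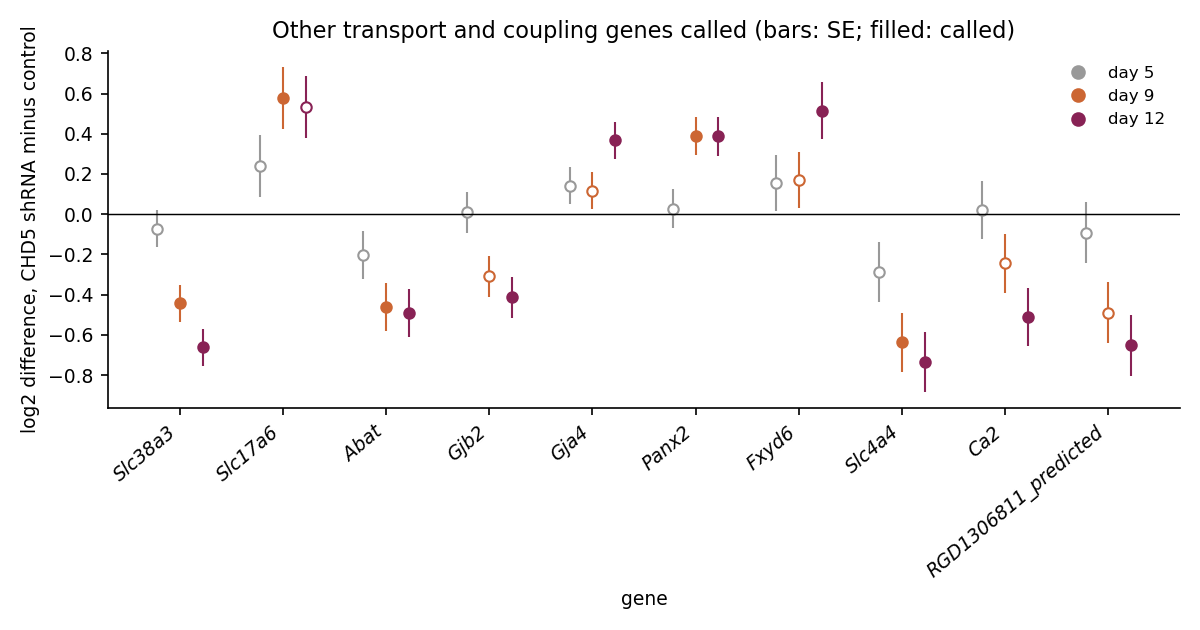
Log2 difference between CHD5 shRNA and control for 10 of the other transport and coupling genes called on at least 1 day, on days 5 (grey), 9 (orange) and 12 (purple). Bars are SE and filled points had a limma adjusted p under 0.05. Slc4a4 reaches -0.74 on day 12, and Slc17a6, Gja4, Panx2 and Fxyd6 lie above 0 where filled.

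Of 16 astrocyte markers outside the transport genes that were tested, 0 were lower in CHD5 shRNA on day 5, 10 on day 9 and 8 on day 12, and 0 were higher on any day. S100b, a calcium-binding protein, was lower on day 12 (log2 difference -1.28), and so were Aldoc (-1.25), Acsbg1 (-1.17), Ndrg2 (-1.31) and Cldn10_predicted, a claudin (-1.42). Gfap, the intermediate filament protein, was lower on day 9 (-1.24) and was not called on day 12. The other markers called were Fgfr3 on both days, Vim, Apoe and Sparcl1 on day 9, and Gpr37l1 and Clu on day 12. On day 12 the differences of Sox9 (0.12), Fabp7 (0.08), Id3 (0.04), Hes5 (0.0043) and Vim (-0.0029) were not called. The summed signal of the 16 markers was 0.822% to 0.883% of the total on day 12 control arrays and 0.620% to 0.629% on day 12 CHD5 shRNA arrays. From day 5 to day 12 14 of 16 astrocyte markers rose in each of the cultures, and Vim fell in control. Of 11 neuron markers, 0 were lower and 1 (Tubb3) was higher on day 12, and their summed share was 0.493% to 0.539% in control and 0.559% to 0.572% in CHD5 shRNA. Of 9 oligodendrocyte lineage markers 2 were lower on days 9 and 12, of 5 fibroblast markers 2 on days 9 and 12, and of 6 proliferation markers none on any day, with all arrays. In bulk RNA the part of these shifts in the difference of each member was not tested. The counts of called genes on all these lists were as high or higher without day 9 control replicate b, with 11 astrocyte markers lower on day 9 and 10 on day 12. Calls rose over all probes as well. With all arrays 0.126%, 2.25% and 3.24% were lower on days 5, 9 and 12, and without that array 1.02%, 6.6% and 6.9%. On day 5 2 astrocyte markers, Gfap (-0.93, limma adjusted p = 0.0243) and Vim (-0.80, limma adjusted p = 0.0131), and 3 proliferation markers, Cdc2a (-0.55), Ccna2 (-0.47) and Mcm2_predicted (-0.39), were then lower in CHD5 shRNA.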

How the data were processed

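RNA of 18 samples was hybridised to Illumina RatRef-12 bead arrays, 3 per group. The deposited signal intensity is the mean over a probe's beads, which the authors exported from GenomeStudio with neither normalization nor background subtraction. The deposited detection p-value sets a probe against the negative controls on the same array and is not adjusted. Second measurements of replicate a (6 arrays) entered an alternative only. Number and brightness of arrays limit the precision.

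Probes with a detection p of at most 0.02 on at least 1 array were kept (11079 of 22523). Log2 signals were turned into Z scores per array, then rescaled to the average SD (1.79) and mean of all arrays. limma 3.58.1 in R 4.3.3 (lmFit and eBayes) was fitted to 6 group means, with Benjamini-Hochberg adjustment over all kept probes within a comparison, after tests on simulated data. Members and gene lists were chosen with earlier results of these data known. Genes named beyond the members are the listed genes called on day 5, 9 or 12, the astrocyte markers called and the 5 most alike genes. Other genes named (Tubb3, proliferation markers, astrocyte markers not called and listed genes not detected) were chosen after their values were seen. Some listed genes enter the counts and are not reported here by name. At day 5 each CHD5 shRNA array deviated most like the control array of its own letter (r = 0.168 to 0.377). On day 9 this held for replicates a (r = 0.426) and b (0.148) and not for c (-0.198). On day 12 it held for b (0.153) and not for a (0.047) or c (0.014). The alternatives were other normalizations, filters, array sets, weights, replicate blocks, a Z-ratio limit of 1.5 and leaving out each array.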

Additional observations from a re-analysis of the deposited data

How the results depend on the processing

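The members called lower in CHD5 shRNA on day 12 numbered 5, 3 under median centring and 4 without a detection filter, and 6 with Slc1a3 added under quantile normalization, neqc, array weights or with only the arrays compared. Median centring lost Atp1b2, Gja1 and Slc1a2 (limma adjusted p 0.351, 0.110 and 0.0549) and added Slc1a3 (limma adjusted p = 0.0417). Gja1 lost its day 12 call under median centring (adjusted p 0.110), without a detection filter (0.286) and without any 1 of the day 12 arrays. Leaving out each array in turn gave 3 to 6, with 3 without replicate a or c of day 12 control or without any of the 3 day 12 CHD5 shRNA replicates, and 6 without day 9 control replicate b. In that last fit 6.9% of all probes were called lower on day 12, against 3.24% with all arrays. Shares of all probes are not given here for the other settings, so these counts are not comparable between settings. On day 9 the 3 calls became 0 under median centring and 0 when only the arrays of the groups compared were fitted, 2 without a detection filter, and 4 with Slc1a3 added under quantile normalization and neqc. Leaving out arrays gave 2 to 4, with Aqp4 lost without day 9 CHD5 shRNA replicate c and Slc1a3 added without day 9 control replicate a. On day 5 the count was 0, but 3 by a Z-ratio beyond 1.5, which takes no account of replicate spread, and 0 to 1 when arrays were left out. For the change of the difference from day 5 to day 12, 0 calls became 1 under quantile normalization, 1 with only the arrays compared, 2 with array weights, 4 by the Z-ratio, and 0 to 2 with arrays left out. From day 5 to day 9 in control, 6 calls became 5 under quantile normalization, neqc, array weights, median centring or no detection filter and 4 with only the arrays compared, where Slc1a2 and Slc1a3 were lost. Between days 9 and 12, the 3 members that rose in control became 1 under median centring and 0 with only the arrays compared, and the 1 in CHD5 shRNA cultures became 4 with array weights, only the arrays compared or the Z-ratio, and 2 under quantile normalization, neqc or detection on all 3 arrays of a group. The 0 interaction calls between neighbouring days became 4 in each by the Z-ratio, and 1 between days 5 and 9 without day 9 control replicate b. Aqp4 and Mlc1_predicted were called on day 12 under each alternative with a test. With the replicate block, by letter or by day and letter, the counts were 0, 3 and 5 on days 5, 9 and 12, as without it, and it changed no other count of members. Averaging the probes of a gene was not run, since each member has 1 probe, and the array weights stopped before their iteration converged. The cause of the changes was not tested.

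Slc1a3 from day 9 to day 12 in control turned from -0.60 to 0.0617 under quantile normalization, 0.39 under median centring, 0.0607 under neqc and 0.0709 with array weights. Leaving out arrays gave -1.19 to 0.34, the last without day 9 control replicate b. In CHD5 shRNA cultures that step of Slc1a3 was -0.0077 without a detection filter. Atp1b2 on day 5 ranged from -0.346 to 0.0229 with arrays left out. Slc1a2 and Aqp4 lay near or under the detection limit on day 5, so their small differences there are limited by signal over background.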
